A study of Mus musculus with 6 samples.

Results

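Müller glia with RNA of reactive genes are the Müller nuclei of these retinas that held at least 1 unique molecular identifier (UMI, 1 counted RNA molecule) of Gfap, Lcn2, Serpina3n or C4b. The rule first took barcodes with at least 500 UMIs and at most 10% of them from mitochondrial genes. Of these it took as Müller nuclei the ones with at least 5 of 9 marker genes (Slc1a3, Glul, Rlbp1, Aqp4, Abca8a, Kcnj10, Sox9, Crym and Lhx2) and at least 10 UMIs of them together. Nuclei with more than 2 UMIs of the bipolar genes Grm6 and Trpm1 were left out. It found 168 nuclei among 655 Müller nuclei, 27225 nuclei that passed the first limits and 32418 barcodes. The 168 nuclei are called members below, and the 487 Müller nuclei at 0 UMIs of the 4 genes are called other Müller nuclei. The members were chosen by RNA, so differences in the 4 genes are descriptions of that choice.

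Müller glia span the retina, clear glutamate, water and potassium from around neurons, and hold the tissue together. When the retina is stressed or injured they become reactive, making the intermediate filament proteins GFAP and vimentin and secreted proteins of inflammation. Gfap encodes that filament, Lcn2 encodes lipocalin 2, an iron-siderophore binding protein, Serpina3n encodes a secreted protease inhibitor, and C4b encodes complement component 4. Retinal astrocytes make GFAP without injury.

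The retinas came from C57BL/6J mice and their nuclei were sequenced for RNA and for open chromatin (ATAC) together, nucleus by nucleus (10x multiome). The control group was naïve and wild type, without any vector, and the other groups overexpressed Wif1 from an AAV2/2 vector at 2 weeks and at 4 weeks. The WIF1 protein is secreted and holds Wnt ligands away from their receptors, and the series addresses its link to normal-tension glaucoma. Times are counted from AVI, left unexplained in the labels, and age is not given in the sources used here. A CMV promoter drives the vectors, which is not restricted to a cell type. The design names 2 Wif1 vectors, CMV-Wif1-HA and a form with IRES-GFP added (CMV-Wif1-HA-IRES-GFP), without stating which was used here. A CMV-IRES-GFP control vector is named too, but none of the 3 libraries is labelled with it, so injection, vector and WIF1 cannot be told apart. Each group had 2 eyes and 1 library, and whether eyes were pooled is not stated. There are no replicates, so no difference was tested and all 95% intervals, given in parentheses, cover counting error only.

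To show the DNA at the starts of the genes that define the members, the sequence around the start of 3 of the 4 rule genes is printed from RefSeq (GRCm38.p6), from 250 bases before to 25 after the start, on the gene's strand. Capitals mark matches to a STAT motif (TTCNNNGAA) in Gfap at position -2 from the start and to a C/EBP motif (TTGCNNAA) in Lcn2 at position -216. Serpina3n had no match. Of the 3 stretches, the one of Serpina3n lies within a peak measured below, and the marked matches of Gfap and Lcn2 lie outside the measured peaks. STAT and C/EBP are families of transcription factors that act in inflammation.
Serpina3n, chr12:104406458-104406732, plus strand: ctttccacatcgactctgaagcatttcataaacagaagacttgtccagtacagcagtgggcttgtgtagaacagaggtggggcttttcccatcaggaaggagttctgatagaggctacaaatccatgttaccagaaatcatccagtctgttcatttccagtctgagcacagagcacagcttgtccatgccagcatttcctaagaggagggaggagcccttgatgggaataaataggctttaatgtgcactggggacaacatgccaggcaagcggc
Gfap, chr11:102897176-102897450, minus strand: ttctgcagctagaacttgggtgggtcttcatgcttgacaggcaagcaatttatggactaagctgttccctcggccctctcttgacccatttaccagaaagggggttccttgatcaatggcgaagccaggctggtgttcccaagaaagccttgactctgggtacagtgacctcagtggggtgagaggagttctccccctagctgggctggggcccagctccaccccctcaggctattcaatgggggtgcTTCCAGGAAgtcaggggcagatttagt
Lcn2, chr2:32387715-32387989, minus strand: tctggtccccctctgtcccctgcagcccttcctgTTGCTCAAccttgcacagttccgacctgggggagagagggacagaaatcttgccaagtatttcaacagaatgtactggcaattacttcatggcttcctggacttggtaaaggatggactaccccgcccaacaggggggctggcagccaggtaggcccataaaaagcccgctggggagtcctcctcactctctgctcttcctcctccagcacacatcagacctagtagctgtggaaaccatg

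On both strands, 7.71% of all 32851 RefSeq promoter windows of that length held the STAT motif and 10.2% the C/EBP motif. The other motifs searched were AP-1 (TGANTCA, in 7.35%), TCF/LEF (CTTTGAT, in 3.53%), NF-kappaB (in 4.19%) and the core of the interferon-stimulated response element (GAAA, any 2 bases and GAAA again, in 3.25%). The motifs may overlap each other, and a match is a description of letters, not a site that was measured.

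Interferon-induced genes are printed as well, since their RNA was higher in members. The stretches below hold the response element core in capitals, on the gene's strand, for some genes of the interferon list. Each of these genes had at least 30 UMIs and a ratio of members to other Müller nuclei of 2 or more at 2 weeks. Ifitm3 also met these limits and held the core, but its stretch is not printed. Of 42 windows of the interferon list, 17 (40.5%) held the core and 0 held the TCF/LEF motif.
Gbp2, chr3:142620584-142620633, plus strand: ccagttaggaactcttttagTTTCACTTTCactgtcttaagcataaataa
Igtp, chr11:58199502-58199551, plus strand: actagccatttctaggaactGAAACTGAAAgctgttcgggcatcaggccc
Irgm1, chr11:48871415-48871470, minus strand: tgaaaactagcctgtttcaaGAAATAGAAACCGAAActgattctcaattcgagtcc
Bst2, chr8:71537567-71537622, minus strand: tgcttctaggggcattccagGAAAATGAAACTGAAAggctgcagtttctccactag
Ifit3, chr19:34583353-34583436, plus strand: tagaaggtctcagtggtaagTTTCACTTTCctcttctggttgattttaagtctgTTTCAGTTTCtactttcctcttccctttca

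The label was checked with 10 Müller genes that the rule did not use (Dkk3, Vim, Sox2, Apoe, Hes1, Rgr, Gpr37, Slc38a3, Car2 and Prdx6). They made up 1.97%, 1.74% and 2.25% of UMIs in members of the control, 2 week and 4 week libraries, against 1.47%, 1.40% and 1.61% in other Müller nuclei. Most of these UMIs in members were of Apoe. Of the genes with at least 10 UMIs, 4 of 10 were higher in control members, 5 of 9 at 2 weeks and 6 of 9 at 4 weeks. The median log2 ratios were -0.22, 0.06 and 0.11, so the sums do not show a common rise of the genes. All but Rgr were found in members of the control and 2 week libraries, and all 10 at 4 weeks. Glul, the glutamine synthetase gene, is a marker of the rule, so its presence follows from the selection. Its level was 2814, 3984 and 5020 counts per 1000000 UMIs (CPM) in members and 5845, 5125 and 6318 CPM in other Müller nuclei. Glul RNA was thus lower in members in each library, at 0.481 (0.415 to 0.555), 0.777 (0.729 to 0.829) and 0.795 (0.749 to 0.843) times the level.

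Several measures moved with membership, and their part in the results was not tested except where values without such nuclei are given. Members were deeper, with median depths of 5374, 3584 and 4739 UMIs against 3740, 2603 and 3574 in other Müller nuclei. Their median mitochondrial share was 4.83%, 0.689% and 1.14%, against 1.27%, 0.324% and 0.408%. Members with over 3% mitochondrial UMIs numbered 9 of 14 in the control, 7 of 97 at 2 weeks and 9 of 57 at 4 weeks. The median share of 12 rod markers was 0.980% in control members and 0.144% in control other nuclei, and 0.0774% to 0.106% in the 4 other groups. Called doublets made up 3, 16 and 10 of the members and 13, 27 and 42 of the others. Between 99 and 144 barcodes were shared by each pair of libraries among all nuclei kept, and 0 among Müller nuclei.

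Genes of retinal astrocytes set 13 members apart. Nuclei with at least 2 UMIs of Pax2, Pdgfra and S100b together, a limit chosen after the values were seen, numbered 5 (control), 4 (2 weeks) and 4 (4 weeks) among members, and 0, 0 and 1 among others. They held all of the members' 3, 8 and 5 Pax2 UMIs, a transcription factor gene of retinal astrocytes. In these 13 nuclei the Müller genes Aqp4 and Crym were at 6, 0 and 1 and at 2, 1 and 0 UMIs, and Rlbp1 at 585, 498 and 348 CPM against 1635, 1535 and 1515 CPM in the other members. Glul was found in all 13 of them. Slc1a3, which astrocytes also make, was at 1317, 1273 and 317 CPM against 807, 1009 and 956 CPM, and Sox9 at 476, 720 and 285 CPM against 262, 419 and 295 CPM. Thus they met the Müller rule with mixed marker levels while also holding astrocyte genes, and the control ones had 5.57% to 9.83% mitochondrial UMIs and 3 doublet calls. The whole list of 5 astrocyte markers was detected in members of each library and made up 0.0642%, 0.0278% and 0.0321% of their UMIs, against 0.0173%, 0.0220% and 0.0157% in other Müller nuclei. Of its genes, Aldh1l1 was at 0 UMIs in the 13 nuclei, against 3, 21 and 9 in the remaining members. Agt was at 5, 0 and 1 UMIs against 2, 43 and 17. At 2 and 4 weeks the members' UMIs of both thus came mostly from outside the 13. Per member the list ranged from 0% to 0.239%, 0.275% and 0.581%. Results that rest on these nuclei are given with and without them.

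Members made up the largest share of Müller nuclei at 2 weeks. The share was 14 of 112 nuclei or 12.5% (7.01 to 20.1, Clopper-Pearson) in the control, 97 of 278 or 34.9% (29.3 to 40.8) at 2 weeks and 57 of 265 or 21.5% (16.7 to 27.0) at 4 weeks. The 2 week share was 2.79 times the control share (1.59 to 5.30), and the 4 week share 1.72 times (0.947 to 3.34), an interval that holds 1. Single genes differed in this. The share with C4b RNA was 4.20 times (1.94 to 10.8) and 2.48 times (1.10 to 6.54) that of the control at 2 and 4 weeks, and that with Serpina3n RNA 4.30 times (1.34 to 21.9) and 1.97 times (0.550 to 10.7). For Lcn2 the ratios were 2.82 (0.987 to 11.1) and 1.80 (0.586 to 7.34), and for Gfap 1.55 (0.660 to 4.23) and 0.906 (0.348 to 2.63). From 2 to 4 weeks the share of members was 0.616 times as large (0.436 to 0.864). Depth differed between libraries, so each nucleus was also thinned to 2000 UMIs, which left out 5, 31 and 5 Müller nuclei below that depth. The shares were then 7.48%, 29.1% and 13.8%, with 2 week and 4 week ratios to control of 3.90 (1.88 to 9.37) and 1.85 (0.846 to 4.61).

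Without the astrocyte-marker nuclei the shares were 8.41%, 33.9% and 20.4%, and the ratios to control 4.04 (2.04 to 9.10) and 2.42 (1.19 to 5.59). Without nuclei of over 3% mitochondrial UMIs they were 6.33% (5 of 79), 33.6% (90 of 268) and 19.8% (48 of 242), with ratios of 5.31 (2.19 to 16.7) and 3.13 (1.25 to 10.1). The control share therefore rests on few nuclei, and both steps removed members from it. Droplets also take up free RNA, so the same 4 genes were counted in rods and bipolar nuclei, which should lack them. A UMI was found in 0.728%, 0.961% and 0.514% of rod nuclei at median depths of 1273, 732.0 and 1077 UMIs, and in 0.611%, 2.27% and 0.601% of bipolar nuclei at 3986, 2535 and 3455. After thinning to 500 UMIs, 3.57%, 15.5% and 7.92% of Müller nuclei and 0.149%, 0.557% and 0.181% of rods had one. The rod and bipolar shares were thus also highest at 2 weeks, at a small part of the Müller share, and what free RNA added to the Müller share was not tested.

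**Figure D1:**
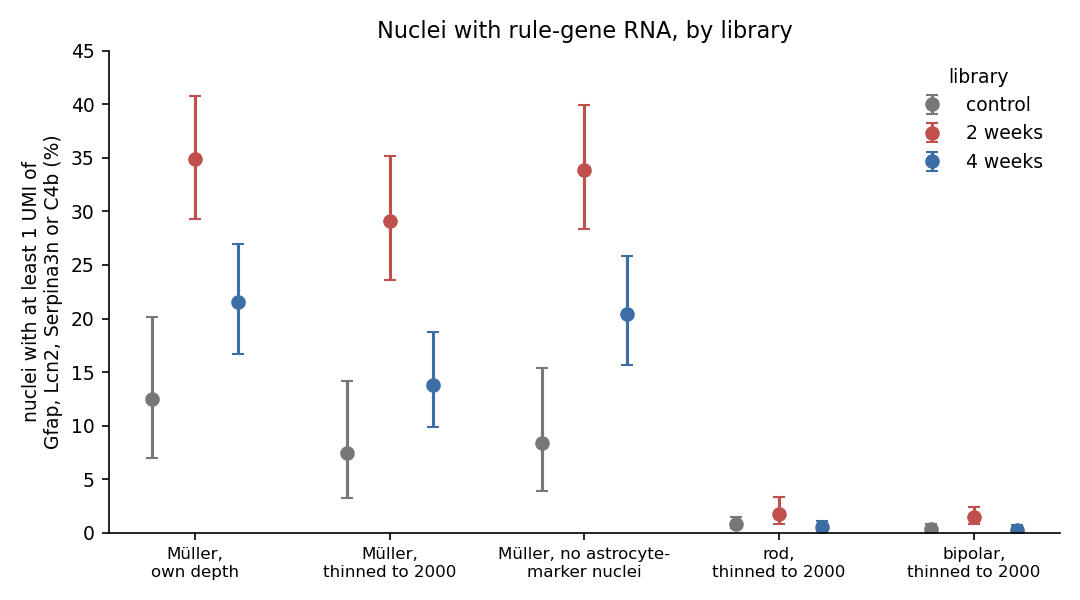
Percent of nuclei (y axis) with at least 1 UMI of the 4 genes, in Müller nuclei at their own depth, thinned to 2000 UMIs and without astrocyte-marker nuclei, and in thinned rod and bipolar nuclei, for each library. Points are shares and bars are Clopper-Pearson 95% intervals. The 2 week Müller share is the highest of the 3 libraries in each setting (34.9% at own depth), and rods and bipolar nuclei lie below 2%.

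C4b alone marked many of the members, and all 4 genes were seen together in few. C4b RNA was found in 7 of 14, 73 of 97 and 41 of 57 members, and was the only rule gene in 4, 42 and 29 of them. Serpina3n was found in 3, 32 and 14 members, Lcn2 in 4, 28 and 17 and Gfap in 7, 27 and 15. Members with UMIs of 1 of the 4 genes numbered 8, 60 and 35, and 0, 7 and 2 members had all 4. At the edge of the rule, 5, 43 and 22 members had 1 UMI of the 4 genes together. At the edge of the marker limit, 18, 48 and 28 Müller nuclei had 5 markers, of which 5, 12 and 7 were members. Just outside it, 10, 25 and 14 nuclei had 4 markers, of which 3, 8 and 8 had a UMI of the 4 genes. C4b has a near-identical copy, C4a, between which reads may have been split, so its values are uncertain.

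In the treated libraries Lcn2 UMIs were concentrated in few nuclei. Its members' UMIs were 6, 335 and 441, or 81.9 (30.1 to 178), 895 (801 to 996) and 1522 CPM (1384 to 1671). A single nucleus held 67 of them at 2 weeks and 175 (39.7%) at 4 weeks. Lcn2 was higher in members of both treated libraries than of the control, with ratios of 10.9 for 2 weeks (4.97 to 30) and 18.6 for 4 weeks (8.49 to 51.0).

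Serpina3n and C4b were highest at 2 weeks. Serpina3n UMIs were 4, 123 and 50, or 54.6, 329 and 173 CPM, with 6.02 times the control level at 2 weeks (2.29 to 22.5) and 0.526 times the 2 week level at 4 weeks (0.371 to 0.736). C4b UMIs were 8, 153 and 93, or 109 (47.2 to 215), 409 (346 to 479) and 321 CPM (259 to 393). Its 2 and 4 week levels were 3.75 times (1.85 to 8.83) and 2.94 times (1.43 to 7.02) that of the control, and the last pair of intervals overlaps. Without astrocyte-marker nuclei C4b stood at 153 (61.4 to 314), 337 (280 to 403) and 268 CPM (209 to 339). The control interval of C4b then overlaps those of both treated libraries. Serpina3n stood at 87.2 (23.8 to 223), 318 (262 to 382) and 190 CPM (141 to 252) without them.

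Among members, Gfap did not follow that order. Its UMIs were 18, 64 and 52, or 246 (146 to 388), 171 (132 to 218) and 180 CPM (134 to 235), and the intervals overlap. In the control 13 of the 18 UMIs came from the 5 astrocyte-marker nuclei. Without such nuclei Gfap stood at 109 (35.4 to 254), 127 (92.3 to 169) and 136 CPM (94.7 to 189) and Lcn2 at 87.2, 678 and 1713 CPM. Levels in members depend on the choice of members by these same genes. Over all Müller nuclei, members and others together, Gfap was at 39.2, 72.1 and 47.9 CPM and thus highest at 2 weeks. Lcn2 was there at 13.1, 378 and 406 CPM, Serpina3n at 8.70, 139 and 46.1 CPM and C4b at 17.4, 172 and 85.7 CPM.

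**Figure D2:**
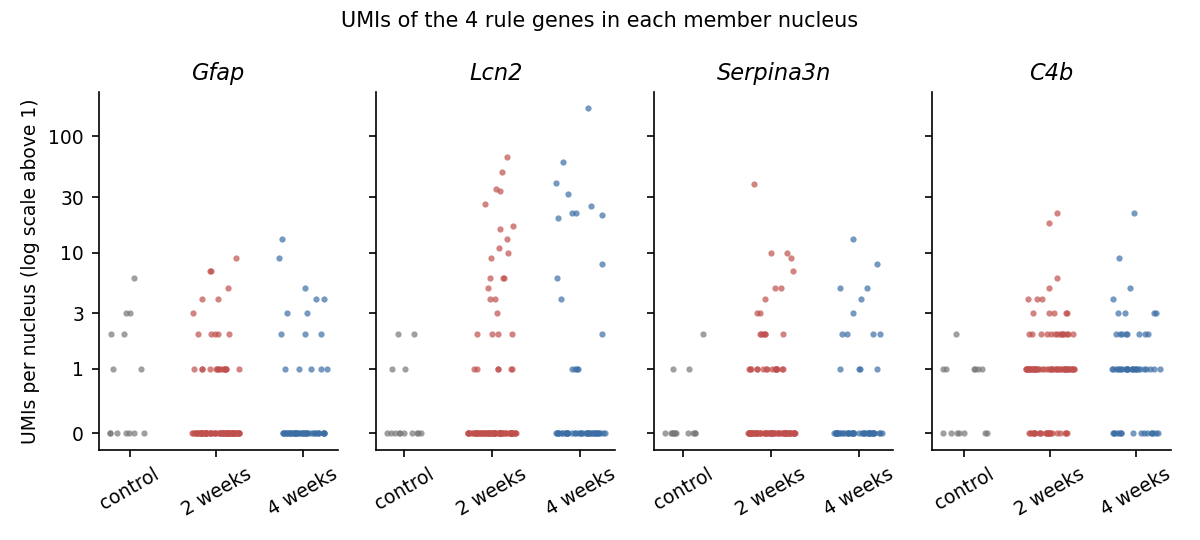
UMIs per member nucleus (y axis, log scale above 1) of Gfap, Lcn2, Serpina3n and C4b in the 3 libraries, with 1 point per nucleus and sideways jitter. Lcn2 reaches 67 UMIs at 2 weeks and 175 at 4 weeks in single nuclei, while C4b has most of its points at 1 or 0.

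Members were next compared with other Müller nuclei of the same library, leaving out the 4 genes. Of genes with at least 30 UMIs in the higher group, 168 of 4021 (4.18%) were at least 2-fold higher in members at 2 weeks and 95 (2.36%) at least 2-fold lower. At 4 weeks the counts were 181 of 5696 (3.18%) and 326 (5.72%), and in the control, with 14 members, 154 of 2999 (5.14%) and 489 (16.3%). The split depends on the limit, since the groups differ in size, and with 10 UMIs the counts were 628 higher and 541 lower at 2 weeks, 627 and 624 at 4 weeks and 704 and 489 in the control. Among 3894 genes with 30 UMIs in both treated libraries, 136 were 2-fold higher at 2 weeks and 136 at 4 weeks, and 51 were so at both, 37.5% of each. For the lower genes the counts were 83 and 141, with 15 at both (18.1% and 10.6%).

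Genes of reactive glia other than the 4 were higher in members. A list of 39 such genes had 22 with at least 10 UMIs at 2 weeks, of which 19 were higher, with a median log2 ratio of 1.05. At 4 weeks 20 of 22 were higher, with a median of 1.28, and in the control 12 of 15, with 0.40. Over all genes of at least 10 UMIs, 47.6%, 47.1% and 57.7% were higher at 2 weeks, 4 weeks and in the control, with medians of -0.03, -0.04 and 0.17. Within nuclei of 2000 to 8000 UMIs, a band that keeps most nuclei and does not match their depth, the list medians were 1.01 and 1.26 at 2 and 4 weeks. Without the astrocyte-marker nuclei they were 0.99 and 1.33. Leaving the same nuclei out, the list's summed RNA in the 9 remaining control members was 2.14 times (1.97 to 2.32) that of other control nuclei. The 2 week library gave a ratio of 1.53 (1.48 to 1.58), and the 4 week library one of 2.07 (1.99 to 2.15). By this sum, higher reactive glia RNA in members was thus not particular to the treated libraries. Of the list's genes with 30 UMIs, 6 of 14 at 2 weeks and 8 of 16 at 4 weeks were at least 2-fold higher, beside the 4.18% and 3.18% of all genes.

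Vim, encoding vimentin, had 266 UMIs in members and 183 in others at 2 weeks, or 712 and 357 CPM. Members were at 1.99 times the level (1.65 to 2.42), and at 4 weeks at 2.06 times (1.72 to 2.48). A2m, encoding the protease inhibitor alpha-2-macroglobulin, stood at 225 against 23.4 CPM at 2 weeks, 9.60 times (5.22 to 19.3), and at 367 against 11.3 CPM at 4 weeks, 32.4 times (16.4 to 72.9). It was found in 29 of 97 and 25 of 57 members. Control members had it too, at 27.6 times (13.7 to 60.0) the other control nuclei without astrocyte-marker nuclei. Also without them, A2m in members was at 0.240 times (0.158 to 0.371) the control level at 2 weeks and 0.465 times (0.314 to 0.704) at 4 weeks. The metallothionein gene Mt1, whose product binds zinc and copper, was higher by 2.64 times (2.30 to 3.05) and 5.32 times (4.33 to 6.54). Cd44, a receptor for hyaluronan, was higher by 2.14 times (1.52 to 3.04) and 1.71 times (1.22 to 2.38).

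Ceruloplasmin (Cp), a copper-carrying ferroxidase, and clusterin (Clu), a secreted chaperone, were abundant and differed less. Cp was at 3548 against 2095 CPM at 2 weeks (1.69 times, 1.56 to 1.84), and Clu at 11652 against 8825 CPM (1.32 times, 1.27 to 1.38). At 4 weeks their ratios were 1.78 (1.65 to 1.92) and 1.46 (1.38 to 1.55). Timp1, an inhibitor of matrix metalloproteases, had 43 UMIs in 8 members and 0 in other nuclei at 4 weeks, at least 39.5-fold higher. At 2 weeks it had 22 against 7 UMIs, a ratio of 4.31 (1.78 to 11.9).

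**Figure D3:**
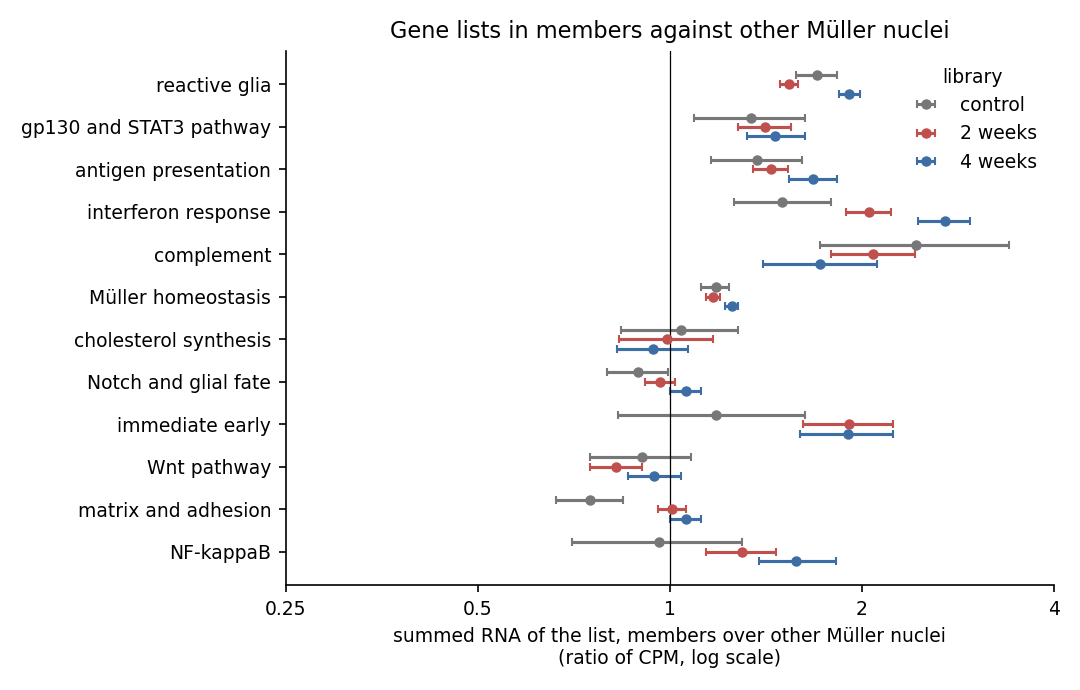
Summed RNA of each of 12 gene lists in members over other Müller nuclei (x axis, ratio of CPM on a log scale) in the 3 libraries, with 95% counting intervals as bars and a line at equal levels. Interferon-response RNA lies highest among the lists at 2.70 at 4 weeks, and Wnt pathway RNA lies at 0.824 at 2 weeks.

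Interferon-induced genes were higher in members. Of 44 genes, 35 of 38 with at least 10 UMIs were higher at 2 weeks (median log2 ratio 0.94) and 29 of 32 at 4 weeks (1.12). Their summed RNA was 4096 against 2001 CPM at 2 weeks, 2.05 times (1.89 to 2.22), and 3031 against 1124 CPM at 4 weeks, 2.70 times (2.45 to 2.96). In the control 20 of 28 were higher, with a median of 0.18 and a sum of 1.50 times (1.26 to 1.79). Without astrocyte-marker nuclei the control median was 0.85 and the sum 1.88 times (1.54 to 2.27), so the control members also had higher interferon RNA than the other control nuclei. Of genes with 30 UMIs, 11 of 22 and 5 of 13 were at least 2-fold higher at 2 and 4 weeks. The medians were 1.02 and 1.08 at 2000 to 8000 UMIs, and 0.90 and 1.19 without astrocyte-marker nuclei.

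Gbp2, a guanylate-binding GTPase, had 65 UMIs in 26 members and 15 in other nuclei at 2 weeks, 5.95 times the level (3.35 to 11.2). At 4 weeks it had 20 and 11 UMIs, 5.01 times (2.29 to 11.6). The immunity-related GTPase gene Igtp had 88 and 25 UMIs at 2 weeks, 4.83 times (3.07 to 7.86), and at 4 weeks 1.50 times (0.677 to 3.17), an interval that holds 1. Iigp1, of the same GTPase family, had 38 against 3 UMIs at 2 weeks (17.4 times, 5.51 to 88.0), in 10 members of which 1 held 47.4%. Irf1, a transcription factor of the interferon response, was higher by 3.58 times (2.18 to 6.07) and 4.00 times (1.75 to 9.54). Several of these genes were carried by few members, so that 26 of 97 had Gbp2 and 24 had Igtp at 2 weeks.

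Ifitm3, a membrane protein that restricts virus entry, was the more widespread gene, in 49 of 97 and 40 of 57 members. It was higher by 3.22 times (2.51 to 4.15) in the 2 week library, 7.77 times (5.87 to 10.4) in the 4 week library and 11.8 times (7.53 to 19.0) in the control. Bst2, encoding tetherin, was higher by 2.32 times (1.44 to 3.81) and 3.27 times (2.13 to 5.02), and Ifit3, an RNA-response protein, by 2.11 times (1.28 to 3.52) and 3.93 times (2.50 to 6.24). Ifitm2 and Ifitm3, like the Gbp and Ifit genes, have close copies whose reads may be split.

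Antigen presentation genes were higher at smaller ratios. Of 31 genes, of class I and class II together, 24 of 28 were higher at 2 weeks (median 0.53) and 14 of 17 at 4 weeks (0.82). B2m, the class I light chain, had 637 UMIs in members and 543 in others at 2 weeks, or 1704 and 1059 CPM, 1.61 times (1.43 to 1.81), and 2.62 times at 4 weeks (2.13 to 3.23). The heavy chain genes H2-K1 and H2-D1 were at 1.44 times (1.26 to 1.65) and 1.87 times (1.52 to 2.30) at 2 weeks, and at 1.77 times (1.31 to 2.37) and 2.97 times (1.86 to 4.75) at 4 weeks. H2-T23, a nonclassical class I gene, was at 2.43 times (1.58 to 3.79) and 7.23 times (3.98 to 13.8). Class I genes are near-identical in parts, and their counts are uncertain for that reason.

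The class II genes at 2 weeks went the other way. Cd74, the class II invariant chain, had 48 UMIs in members and 180 in others, 0.366 times the level (0.260 to 0.506), and H2-Aa had 9 and 34, 0.363 times (0.153 to 0.773). One member held 47.9% of the Cd74 UMIs of members. Microglia and macrophage markers made up 0.0115% of UMIs in members and 0.0289% in others there, with 6 and 10 of 10 detected and with Csf1r, Tmem119, Ptprc and Tyrobp at 0 in members. Per nucleus that list ranged from 0% to 0.112% in members and from 0% to 2.08% in others. Lymphocyte markers stood at 0.00454% and 0.0160%, with 2 and 4 of 6 detected. The part of both in the class II values was not tested.

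Complement genes besides C4b had a higher sum but no common direction. Their summed RNA was 2.08 times (1.79 to 2.42) that of other nuclei at 2 weeks and 1.72 times (1.40 to 2.11) at 4 weeks, whereas the median log2 ratios were -0.05 and -0.22, with 5 of 11 and 3 of 7 higher. Serping1, which inhibits the first complement component, was higher by 2.64 times (2.11 to 3.32) and 4.51 times (3.10 to 6.63). C3, the central component, had 91 UMIs in 13 members at 2 weeks, 41.8% of them in 1 nucleus, and 1 UMI in other nuclei (125 times, 21.9 to 4985).

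The receptor and STAT3 pathway upstream of many reactive genes showed little common direction either. Cytokines of the interleukin 6 family signal through the receptor chain gp130 (Il6st) to STAT3, and CEBPB and CEBPD are transcription factors induced by them. Of the 18 pathway genes with 10 UMIs, 8 were higher at 2 weeks and 7 at 4 weeks, with medians of -0.18 and -0.06 but sums of 1.41 times (1.28 to 1.55) and 1.46 times (1.32 to 1.63). Il6st was at 0.855 times (0.554 to 1.30) and 0.955 times (0.627 to 1.42), and Cntfr, the ciliary neurotrophic factor receptor, at 0.730 times (0.521 to 1.01) and 0.632 times (0.441 to 0.888). Osmr, the oncostatin M receptor, was at 1.91 times (1.31 to 2.79) and 1.51 times (0.857 to 2.61), and Stat3 at 1.44 times (1.05 to 1.96) and 1.41 times (0.935 to 2.10).

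The C/EBP genes of that list were higher. Cebpd had 333 against 190 UMIs at 2 weeks, 2.40 times (2.01 to 2.89), in 73 of 97 members, and was 4.03 times as high at 4 weeks (3.21 to 5.09), where 1 nucleus held 30.7%. Cebpb was higher by 2.41 times (1.50 to 3.95) and 8.95 times (4.59 to 18.8). Immediate early genes, which respond within minutes to stimuli, were higher in 13 of 14 and 8 of 10 cases (medians 0.71 and 0.90). Among them Fos had 53 UMIs in 12 members at 2 weeks, 60.4% of them in 1 nucleus, and Jun was at 3.12 times (1.76 to 5.78) and 1.99 times (1.15 to 3.39). Genes of NF-kappaB signalling were higher in 12 of 15 and 13 of 15 cases, with medians of 0.34 and 0.63. For one of them, the inhibitor gene Nfkbia, the ratios were 1.44 (0.907 to 2.30) and 2.34 (1.36 to 3.99).

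Genes of Müller upkeep of the retina did not move together. Of 30 such genes, 10 of 23 were higher at 2 weeks and 10 of 24 at 4 weeks, with medians of -0.09 and -0.08, while sums were 1.17 times (1.14 to 1.20) and 1.25 times (1.22 to 1.28). Higher were Prdx6, a peroxiredoxin, by 1.74 times (1.53 to 1.98) and 2.08 times (1.84 to 2.36), Dbi by 2.11 times (1.82 to 2.46) and 2.18 times (1.89 to 2.50), and the apolipoprotein gene Apoe by 1.36 times (1.30 to 1.42) and 1.54 times (1.48 to 1.60). Ptgds, prostaglandin D synthase, was higher by 4.50 times (3.29 to 6.25) and 3.76 times (2.80 to 5.06), with 42.0% in 1 nucleus at 2 weeks.

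Other genes of the list were lower. The water channel gene Aqp4 was at 0.720 times (0.601 to 0.859) and 0.684 times (0.597 to 0.782). The lactate carrier gene Slc16a1 was at 0.650 times (0.474 to 0.883) and 0.553 times (0.402 to 0.747), and the carbonic anhydrase gene Car14 at 0.757 times (0.641 to 0.892) and 0.755 times (0.618 to 0.916). The ratio of Aqp4 without astrocyte-marker nuclei was 0.756 (0.632 to 0.903) and 0.764 (0.667 to 0.874). Pax6, a transcription factor of retinal progenitors and Müller glia, was at 0.756 times (0.659 to 0.866) and 0.696 times (0.581 to 0.829), while Hes1, a Notch target, was at 1.04 times (0.871 to 1.25) and 1.08 times (0.910 to 1.28). Cholesterol synthesis, Notch and matrix lists had medians within 0.14 of 0 in both treated libraries.

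The Wnt pathway, which WIF1 acts on, was not higher in members. Of its 42 genes, 8 of 21 with 10 UMIs were higher at 2 weeks (median -0.22) and 11 of 25 at 4 weeks (-0.06). Tcf7l2, a transcription factor through which beta-catenin acts, had 88 UMIs in members and 228 in others at 2 weeks, 0.530 times the level (0.409 to 0.680), and 94 and 289 at 4 weeks, 0.895 times (0.702 to 1.13). In the control it was at 0.555 times (0.310 to 0.932). The Wnt receptor gene Fzd5 was at 0.563 times (0.361 to 0.860) and 0.757 times (0.508 to 1.10), and Nkd1, a feedback inhibitor, at 1.04 times (0.593 to 1.80) and 0.424 times (0.194 to 0.830).

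The design names TCF4 as a regulator of Wnt signalling, a name used for the product of Tcf4, an E protein, and also for that of Tcf7l2. Tcf4 had ratios of 0.877 (0.773 to 0.993) and 0.796 (0.691 to 0.914) in the 2 and 4 week libraries. Wif1 itself was near the limit of detection, with 0, 1 and 7 UMIs in members and 0, 1 and 5 in other Müller nuclei. Its 4 week ratio was 3.85 (1.05 to 15.4), from 4 members of which 1 held 42.9%. The assay reads transcripts near their 3′ end, and whether vector-derived Wif1 RNA would be counted was not tested.

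Among genes that reached 30 UMIs and 50 CPM in whichever group was higher, in both treated libraries, the 10 highest in members included genes carried by very few nuclei. Fbln1 (ENSMUSG00000006369), a secreted matrix protein, had 63 and 32 UMIs in members and 0 in others, at least 28.8-fold and 29.4-fold higher, in 4 and 5 members. The chemokine genes Ccl2 and Cxcl10 came from 2 and 3 members at 2 weeks and 3 and 2 at 4 weeks. Ccl2 had 43 and 166 UMIs against 0, at least 19.7-fold and 152-fold higher, with 93.0% and 81.3% in 1 nucleus. Cxcl10 had 57 against 1 UMI (78.2 times, 13.5 to 3142) and 115 against 0, at least 106-fold higher. Reln, encoding the matrix protein reelin, was at 50.8 times (8.56 to 2058) from 37 against 1 UMI and 57.8 times (15 to 493) from 42 against 2.

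Others of the 10 were spread over more nuclei. Nupr1, a stress-response chromatin protein, was found in 29 and 15 members, at 7.49 times (4.11 to 14.8) and 5.51 times (2.99 to 10.5). Chil1, encoding a chitinase-like secreted protein of reactive glia, was found in 35 and 29 members, at 4.89 times (3.24 to 7.60) and 5.59 times (4.14 to 7.60), and Ifitm2 at 4.80 times (2.61 to 9.42) and 9.64 times (5.63 to 17.3). A2m, given above, also belonged to them.

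The neurotrophin receptor gene Ntrk2 and the cystatin gene Cst3 depended on the astrocyte-marker nuclei. Ntrk2 was at 28.8 times (7.49 to 246) and 23.4 times (8.35 to 90.8) with these nuclei, and at 17.3 times (4.29 to 151) and 9.22 times (2.80 to 39.2) without them. Cst3 was at 9.33 times (8.16 to 10.7) and 5.12 times (4.59 to 5.71) with them, and at 1.58 times (1.32 to 1.88) and 1.32 times (1.12 to 1.55) without. The 4 such nuclei at 2 weeks had Cst3 at 77128 CPM.

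The 10 lowest were Slco1c1, Ptprz1, Lima1, Cdh10, Itgb5, Pcsk5, Kdm5b, Ccdc88c, Trhde and Rims1. Slco1c1, a thyroid hormone carrier, had 9 against 39 UMIs at 2 weeks and 5 against 109 at 4 weeks, 0.317 times (0.135 to 0.664) and 0.126 times (0.0402 to 0.304). Ptprz1, a glial receptor phosphatase, was at 0.376 times (0.206 to 0.652) and 0.275 times (0.138 to 0.499). The integrin gene Itgb5 was at 0.315 times (0.174 to 0.539) and 0.427 times (0.245 to 0.705), and Trhde, which degrades thyrotropin-releasing hormone, at 0.479 times (0.303 to 0.740) and 0.207 times (0.101 to 0.382). None of these 4 rested on the astrocyte-marker nuclei, with 2 week ratios between 0.331 and 0.504 without them.

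Members differed among themselves by how many UMIs of the 4 genes they held. For these values the astrocyte-marker nuclei were left out, and nuclei at 0, 1, 2 to 9 and 10 or more UMIs were summed. Reactive glia RNA at 2 weeks was 12926, 13540 (12955 to 14145), 22289 (21520 to 23079) and 28549 CPM (27263 to 29881). At 4 weeks it was 8172, 11171, 14000 and 28393 CPM (27152 to 29676). In the control it was 7457, 8616 and 19314 CPM (17810 to 20913) at 0, 1 and 2 to 9 UMIs, from 98, 4 and 5 nuclei. Members with 1 UMI thus lay near the other Müller nuclei at 2 weeks, and those with 10 or more lay above both.

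Interferon RNA was 2001, 2609, 5352 and 4864 CPM at 2 weeks, and 1127, 2527, 3369 and 3681 CPM at 4 weeks. Antigen presentation RNA was 4119, 3704, 6604 and 8261 CPM at 2 weeks, and 1769, 2585, 3212 and 3464 CPM at 4 weeks. For both lists the members with 1 UMI at 2 weeks lay closer to other Müller nuclei than to members with more. In the control, nuclei at 0, 1 and 2 to 9 UMIs had 1509, 973 and 3685 CPM of interferon RNA. Their antigen presentation RNA was 1815, 1320 and 3304 CPM. The groups had 181, 43, 37 and 13 nuclei at 2 weeks with median depths of 2603, 2845, 3551 and 4310 UMIs, and 207, 22, 20 and 11 at 4 weeks with 3571, 3738, 4606 and 6035. Depth moved with the groups, and its part was not tested.

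**Figure D4:**
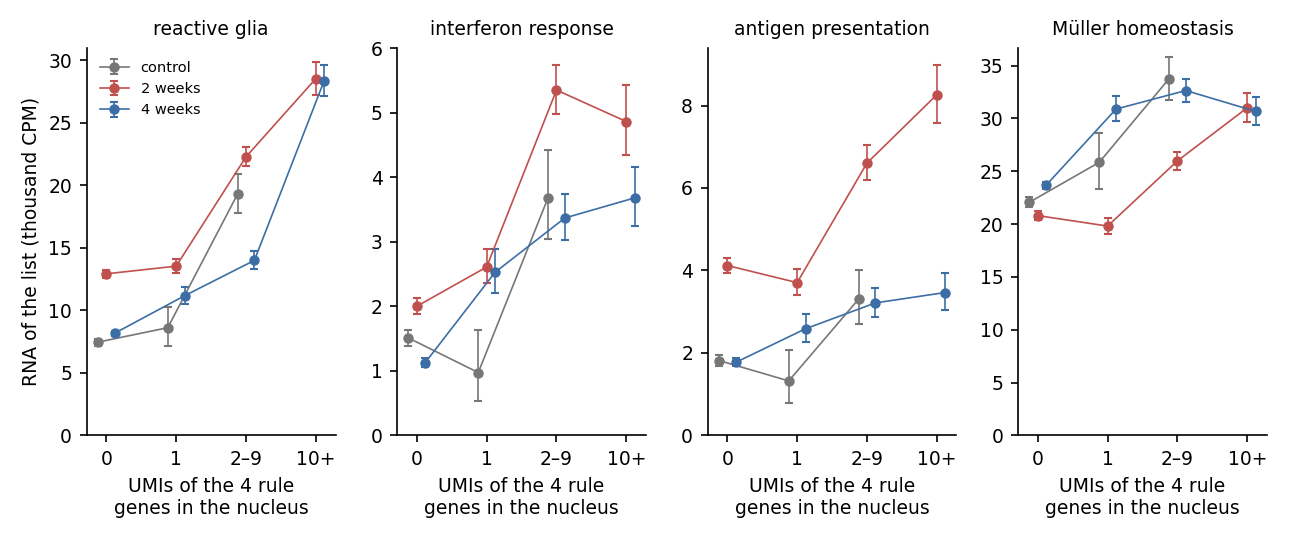
RNA of 4 gene lists (y axes, CPM divided by 1000) in Müller nuclei grouped by their UMIs of the 4 rule genes (x axes), for each library, without astrocyte-marker nuclei. Bars are 95% Poisson intervals and lines join the groups of 1 library. Reactive glia RNA reaches 28549 CPM at 2 weeks and 28393 CPM at 4 weeks in nuclei with 10 or more UMIs, and the control has no such nuclei.

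Members of the treated libraries were then compared with those of the control, with the limit that the control has 14 members, 5 of them with astrocyte markers. Of 2847 genes, 486 (17.1%) were at least 2-fold higher at 2 weeks and 181 (6.36%) lower. Of 2175 genes at 4 weeks, 272 (12.5%) were higher and 103 (4.74%) lower. Which direction was more common depended on the setting. Without nuclei of over 3% mitochondrial UMIs the counts were 91 higher and 251 lower at 2 weeks and 78 and 110 at 4 weeks, and with a limit of 10 UMIs they were 486 and 764, and 400 and 459. The median log2 ratio of all these genes was 0.15 at 2 weeks and 0.20 at 4 weeks, and -0.13 and 0.02 over genes of at least 10 UMIs, the limit used for the list medians. In other Müller nuclei, 199 of 4083 genes (4.87%) were higher and 218 (5.34%) lower at 2 weeks against control, and 2.24% and 0.582% at 4 weeks. Each comparison with the control uses the same control nuclei.

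The 5 highest genes at 2 weeks were Klhl2 (129 against 1 UMI, 25.3 times, 4.46 to 1006), Bcl6 (108 against 1, 21.2 times, 3.72 to 843), BC055402 (8.91 times, 3.42 to 33.1), Limch1 (8.36 times, 2.80 to 41.1) and H2-D1 (7.15 times, 3.23 to 19.7). At 4 weeks they were Ccl2 and Cxcl10, at least 14.0-fold and 9.71-fold higher, Limch1 (7.18 times, 2.37 to 35.5), Dgkb (6.42 times, 2.88 to 17.8) and Chil1 (5.74 times, 2.57 to 15.9). Bcl6 encodes a transcriptional repressor. Without astrocyte-marker nuclei Klhl2 and Bcl6 were at 16.6 times (2.93 to 662) and 13.5 times (2.38 to 540) the control level at 2 weeks, from 1 control UMI each. Also without them, control members had Klhl2, Bcl6, BC055402 and Limch1 at 0.105, 0.119, 0.179 and 0.111 times the level of other control nuclei. At 2 weeks the same comparison gave 1.07, 0.885, 0.815 and 0.710 times. For H2-D1 it gave 1.40 times in the control and 1.63 times at 2 weeks. Dgkb, also without those nuclei, was at 0.226 times (0.0819 to 0.499) in the control, from 6 member UMIs, and at 0.966 times (0.797 to 1.16) at 4 weeks. The high ratios of Klhl2, Bcl6, BC055402, Limch1 and Dgkb to control thus go with low values in control members.

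The lowest at 2 weeks included AY036118 and Gm42418, overlapping transcripts at ribosomal RNA sequence, 19.2-fold (12.2 to 31.2) and 16.6-fold lower (13.4 to 20.7). Other Müller nuclei had 389 and 32 UMIs of AY036118 and 1605 and 126 of Gm42418 in the control and at 2 weeks. Both genes were thus lower at 2 weeks in other Müller nuclei too. Next among members came Igfbp5, 7.11-fold lower (4.27 to 12), whose control UMIs were all in the astrocyte-marker nuclei. Gnat1, the rod transducin gene, was 6.63-fold lower (4.77 to 9.26), beside the higher rod marker share of control members, and was 5.29-fold lower (3.54 to 7.84) without the astrocyte-marker nuclei. The rod marker list at 2 weeks was at 0.281 times (0.257 to 0.308) the control level in members. In other Müller nuclei it was at 0.344 times (0.322 to 0.368), with 12 of 12 genes lower, so this fall was not particular to members. In members Lrrtm3 was 6.13-fold lower (3.48 to 10.9), but its 30 control and 25 2 week UMIs were all in the astrocyte-marker nuclei. Among the lowest at 4 weeks were Ntm (4.37-fold, 2.54 to 7.56), Gnat1 (4.19-fold, 3.06 to 5.73), Ppp2r2b (3.58-fold, 2.37 to 5.39) and Cacnb2 (3.52-fold, 2.13 to 5.79). Without astrocyte-marker nuclei Ntm, Ppp2r2b and Cacnb2 were 6.66-fold (3.25 to 13.9), 6.63-fold (3.61 to 12.3) and 6.60-fold (3.29 to 13.4) lower. These genes are known from neurons, and the part of neuronal RNA in the control members was not tested.

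Between the treated libraries, members at 4 weeks had lower RNA of antigen presentation and interferon genes and higher RNA of cholesterol synthesis. Of 3045 genes, 101 (3.32%) were at least 2-fold higher at 4 weeks and 130 (4.27%) lower, beside 4.77% and 1.98% in other Müller nuclei. Antigen presentation RNA was 2486, 5918 and 2969 CPM in members of the control, 2 and 4 week libraries, and 1815, 4119 and 1766 CPM in other Müller nuclei. At 4 weeks it was 0.502 times the 2 week level (0.463 to 0.543), with 6 of 27 genes higher and a median log2 ratio of -0.89. In other Müller nuclei it was 0.429 times (0.400 to 0.459). Both kinds of nuclei were highest at 2 weeks, and members were above the others in each library. Against the control, 4 week members were at 1.19 times (1.02 to 1.41) and other nuclei at 0.973 times (0.888 to 1.07). Without astrocyte-marker nuclei the members' ratios of this list were 2.12 (1.77 to 2.57) for 2 weeks against control, 1.14 (0.945 to 1.40) for 4 weeks against control and 0.539 (0.496 to 0.585) for 4 weeks against 2 weeks.

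Single class I genes were lower likewise. H2-K1 had 443 UMIs at 2 weeks and 77 at 4 weeks, 0.225 times the level (0.174 to 0.287), B2m was at 0.367 times (0.310 to 0.434) and H2-D1 at 0.242 times (0.169 to 0.339). Interferon RNA was 2268, 4096 and 3031 CPM in members and 1509, 2001 and 1124 CPM in others. Its 4 week level was 0.740 times (0.680 to 0.804) that at 2 weeks in members, with 9 of 37 genes higher. Against the control the members' median log2 ratio of this list was 0.52 at 4 weeks, but -0.07 without astrocyte-marker nuclei and -0.64 without nuclei of over 3% mitochondrial UMIs, so its direction against control depends on a few control nuclei. At 2 weeks it was 0.38, and -0.11 and -0.55 without them. The list's sum without astrocyte-marker nuclei was 1.45 times (1.21 to 1.75) the control level at 2 weeks and 1.12 times (0.928 to 1.36) at 4 weeks, opposite in direction to the medians without those nuclei.

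Cholesterol synthesis RNA was 1475, 629 and 1114 CPM in members and 1416, 636 and 1183 CPM in other Müller nuclei. The control value of members rests on the astrocyte-marker nuclei, without which it was 589 CPM from 27 UMIs, and 599 and 959 CPM remained at 2 and 4 weeks. With these nuclei members had 0.426 times the control level at 2 weeks (0.338 to 0.540), with 0 of 9 genes higher, and without them 1.02 times (0.680 to 1.58). From 2 to 4 weeks the level was 1.77 times as high (1.49 to 2.11), with 14 of 16 genes higher, and 1.60 times (1.33 to 1.93) without them. In other Müller nuclei the corresponding ratios were 0.449 (0.390 to 0.516) and 1.86 (1.64 to 2.12). Msmo1, a sterol oxidase of the pathway, had 22 and 41 UMIs at 2 and 4 weeks, 2.41 times (1.40 to 4.25), and 1.97 times (1.09 to 3.63) without those nuclei. Reactive glia RNA was 12690, 19861 and 15646 CPM in members and 7457, 12926 and 8172 CPM in others. Without astrocyte-marker nuclei the members stood at 15958, 19770 and 16921 CPM, 1.24 times (1.15 to 1.34) the control level at 2 weeks and 1.06 times (0.980 to 1.15) at 4 weeks.

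Open chromatin at the rule genes was read from the same nuclei, a measure the rule did not use. ATAC counts in peaks no more than 1000 bp from the start of a gene were scaled to all such promoter counts of the group. At 2 weeks the 4 genes had 57 counts in members and 20 in other Müller nuclei, or 109 and 25 CPM, a ratio of 4.37 (2.59 to 7.69). Each of Gfap, Serpina3n and C4b was higher in members. Both ends of a fragment may be counted, which the sources used here do not state, so intervals from counts may be too narrow, and numbers of nuclei are given as well.

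The Gfap peak (mm10 chr11:102898124-102899014, upstream of the start at 102897131) had 18 and 4 counts, 6.91 times (2.28 to 28.1). It was open in 7 of 97 members, 7.22% (2.95 to 14.3), and in 2 of 181 others, 1.10% (0.134 to 3.93). The Serpina3n peak (chr12:104406250-104407157), which holds the sequence printed above and the start at 104406729, had 13 and 4 counts, 4.99 times (1.54 to 21.0), again in 7 and 2 nuclei. The C4b peak (chr17:34743491-34744372) had 24 and 12 counts, 3.07 times (1.48 to 6.74), in 13 members, 13.4% (7.33 to 21.8), and 5 others, 2.76% (0.903 to 6.33). The Lcn2 peak (chr2:32388739-32389638), upstream of its printed sequence, had 2 and 0 counts. The Glul promoter was at 0.762 times (0.571 to 1.01).

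Without astrocyte-marker nuclei the 4-gene ratio was 4.34 (2.55 to 7.66), and without called doublets 5.07 (2.90 to 9.24). Median ATAC depths were 7266 counts in members and 6984 in others at 2 weeks. Over all promoters with at least 10 counts in the higher group, a limit that Gfap, Serpina3n and C4b reach, 692 of 14573 (4.75%) were at least 2-fold higher in members at 2 weeks and 713 (4.89%) lower. With at least 30 counts, which none of the 3 has, the shares were 1.32% and 2.60%. At 4 weeks the shares at 30 counts were 1.99% and 8.21%, and in the control 2.43% and 20.1%.

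The other libraries could be compared at fewer of these promoters. Peaks were called separately in each library, and within 1000 bp of the starts of Gfap and C4b none was called in the control or at 4 weeks, nor for Serpina3n at 4 weeks. In the control the Lcn2 and Serpina3n peaks had 7 against 6 counts, 4.74 times (1.36 to 17.1), the 7 counts in 2 members. At 4 weeks Lcn2 had 3 against 8 counts, 1.46 times (0.249 to 6.08), so no difference was detectable at this depth. Of the 135893 ATAC counts of control members, 64650 were in 1 nucleus.

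At the promoters of the reactive glia, interferon and antigen presentation lists the ratios were nearer to 1 than those of RNA in the treated libraries. Promoter counts of the reactive glia list were 1.14 times (1.04 to 1.26) as high in members at 2 weeks, the interferon list 1.09 times (1.0 to 1.20) and antigen presentation 1.03 times (0.949 to 1.11), beside RNA ratios of 1.54, 2.05 and 1.44. Without called doublets these promoter ratios were 1.22 (1.09 to 1.36), 1.18 (1.06 to 1.30) and 1.15 (1.05 to 1.26). In the control, several lists were lower in members, among them interferon at 0.711 times (0.539 to 0.926), while the interferon RNA of control members was higher. Notch was at 0.669 times (0.551 to 0.808), cholesterol synthesis at 0.753 times (0.640 to 0.882) and Wnt at 0.789 times (0.670 to 0.926). Without astrocyte-marker nuclei interferon was at 0.905 times (0.624 to 1.28) and Notch at 0.659 times (0.490 to 0.869). Cholesterol synthesis was then at 0.811 times (0.642 to 1.01) and Wnt at 0.819 times (0.645 to 1.03), so of these only the Notch interval stayed below 1. At 4 weeks the ATAC ratios were 1.12 (0.968 to 1.29), 1.07 (0.926 to 1.22) and 1.23 (1.11 to 1.37). The reactive glia ratio at 4 weeks was 0.876 without called doublets. Stat3 had 0.865 times (0.686 to 1.09) the promoter counts in members at 2 weeks and 0.996 times (0.724 to 1.35) at 4 weeks.

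**Figure D5:**
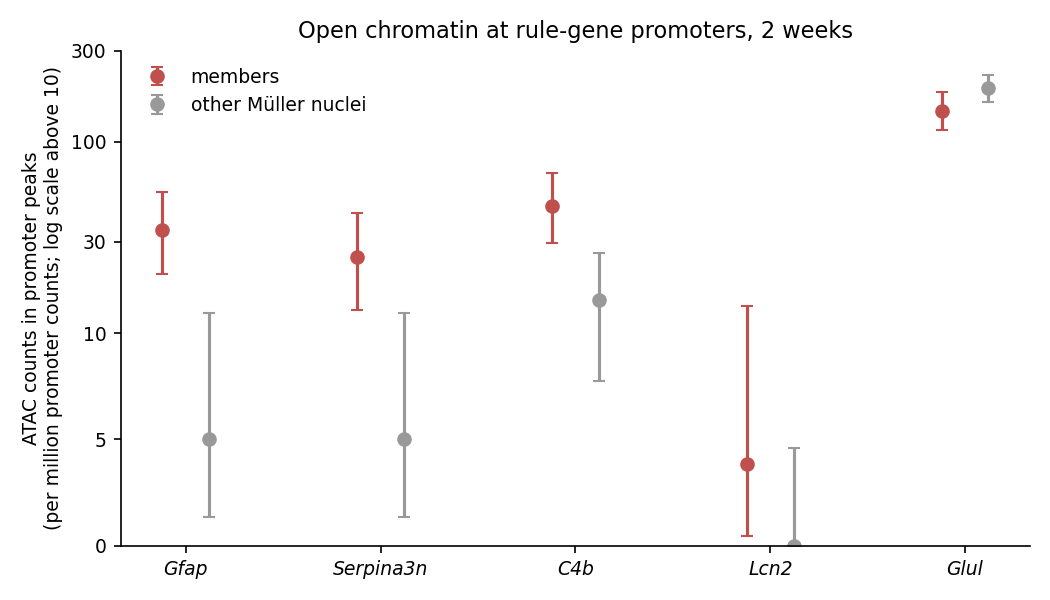
ATAC counts in promoter peaks, as CPM of all promoter counts (y axis, log scale above 10) of Gfap, Serpina3n, C4b, Lcn2 and Glul at 2 weeks in members and other Müller nuclei, with 95% Poisson intervals. Gfap, Serpina3n and C4b lie higher in members (34.5, 24.9 and 46.0 against 5.0, 5.0 and 15), and Glul lies slightly lower.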

How the data were processed

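Nuclear RNA and open chromatin were measured in 3 libraries (control, 2 weeks and 4 weeks). The deposited matrices hold raw counts for each barcode, of UMIs over genes and of ATAC signal over peaks, per the file headers, with RNA totals of 21805441, 14568384 and 19997276. Per the submitters' processing notes, Cell Ranger ARC 2.0.1, Seurat 5.0.1, Signac 1.12.0 and mm10 were used, with roles not given.

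Members were chosen as the report says. The members, gene lists and limits were chosen with earlier results of these data known. Doublets were scored with Scrublet in scanpy 1.11.5, called at a rate of 0.8% per 1000 barcodes (511, 842 and 806 nuclei), kept, and left out as an alternative. UMIs were summed over nuclei and given as CPM with exact Poisson intervals. Ratios have conditional binomial intervals (scipy 1.17.1), checked on simulated data, and shares have Clopper-Pearson intervals. Genes needed 30 UMIs in the higher group, list members 10. A group at 0 was set to 3 counts over the group and written as at least N-fold, and 3 counts also floored the ratios behind list medians.

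Named genes were, by rule, the 10 with the highest smallest log2 ratio over both treated libraries and the 10 with the lowest largest log2 ratio. The 5 highest and 5 lowest against control were added. All were at 50 CPM or more, and mitochondrial genes, Xist, Y-linked genes and rule genes were left out. List genes could be named too, and were chosen after their values were seen. Some genes that the rule or lists would name are not reported here. Rods had at least 5 of 12 rod markers and bipolar nuclei at least 3 UMIs of Grm6 and Trpm1, both with at most 2 Müller marker UMIs. Promoter windows came from RefSeq GRCm38.p6, and coordinates of peaks are those of the files (mm10). With 1 library a group, no test was made.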

Additional observations from a re-analysis of the deposited data

How the results depend on the processing

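No paired analysis was possible because each group has 1 library and no result comes from a test. Under the alternatives, 472 of 540 list medians, 66 of 90 counts of 2-fold genes, 26 of 30 share ratios and 45 of 47 promoter ratios stayed near their reported values. Limits on mitochondrial UMIs and astrocyte markers, thinning with 2 UMIs, and a promoter limit of 10 counts were chosen after seeing the data. The control has 14 members, so comparisons with it depend most on single nuclei, and genes under 30 UMIs are not resolved at this depth. Where a value below differs, the cause was not tested unless fewer nuclei or another limit on genes makes it.

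Requiring 2 UMIs of the 4 genes gave 301 and 523 genes 2-fold lower in members at 2 and 4 weeks, 264 higher and 86 lower at 2 weeks against control, and 64 lower at 4 weeks against control. Scaling by the median ratio gave 278 higher and 313 lower in control members, 62 lower in members at 2 weeks and 166 lower at 4 weeks against control. With 10 UMIs as the limit, control members had 704 genes higher, 2 week members 628 higher and 541 lower, and 4 week members 627 and 624, against other Müller nuclei. Between members, 764 were then lower at 2 weeks and 459 at 4 weeks against control, and 538 higher and 689 lower at 4 against 2 weeks. Without nuclei of over 3% mitochondrial UMIs, 132 genes were lower in control members and 108 higher in 2 week members. Against control, 91 were then higher and 251 lower at 2 weeks, and 78 and 110 at 4 weeks. Without astrocyte-marker nuclei, 270 were lower in control members and 272 higher at 2 weeks against control.

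The interferon median at 4 weeks against control reversed to -0.64 without nuclei of over 3% mitochondrial UMIs and to -0.07 without astrocyte-marker nuclei. The 2 week share ratio to control was 5.31 without nuclei of over 3% mitochondrial UMIs, 5.71 when thinned without astrocyte-marker nuclei and 8.01 when thinned with 2 UMIs required, which gave 4.12 at 4 weeks. Without called doublets, the 4 week reactive glia promoter ratio reversed to 0.876 and the 2 week antigen presentation promoter ratio moved from 1.03 to 1.15.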
